A study of Sus scrofa with 35 samples.

Results

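The 10 genes LYZ, ACP5, GPNMB, CD68, CSF1R, CD14, CD163, TYROBP, FCER1G and AIF1, all known from macrophages, were followed in the longissimus dorsi, the long muscle of the back, of 35 castrated male growing pigs. They were taken as every non-control probe whose gene name in the scanner output was one of these symbols, which gave 39 of the 60305 probes on the array. Of these, 38 were kept, among 41517 kept probes in all, because in 1 group or more, 75% or more of the arrays read them well above background. The exception was 1 of the 12 GPNMB probes, well above background on 6 of 35 arrays. The 39 probes had 36 distinct sequences, so counts of probes include repeats. The genes were chosen by their log2 levels over the 6 groups of breed and temperature in these same arrays, and by their covariation. The difference between temperatures and the covariation are therefore described without a test. Breed contrasts, the breed by temperature interaction and genes outside the 10 were tested. For the 10 genes the breed and interaction tests use group levels that the choice could also draw on, so they are not independent of it.

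Each array held the RNA of 1 pig of the Creole breed, the Large White breed or their F1 cross. Thermoneutral (TN) pigs, 6 of each breed, were slaughtered before the room was warmed, and heat-stressed (HS) pigs, 6 Creole, 5 F1 and 6 Large White, after it. By the labels TN pigs were at 24 °C and HS pigs at 30 °C. The protocol and methods describe 5 days at 32 °C instead, and the 2 accounts could not be reconciled here. The methods add that some HS pigs were slaughtered a day short of the 5 days, and the labels do not say which. Temperature cannot be told apart from slaughter day, age and pen, nor from the lower feed intake that the paper reports in the heat. By the methods, littermates were of the same breed and were spread over the temperatures, and each pen held pigs of 1 breed at 1 temperature. Each breed thus came from few litters and each group from few pens. The labels give neither litter nor pen, so the p-values below treat pigs as independent.

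Macrophages take up and digest debris, dying cells and microbes, and in muscle they lie in the connective tissue between the fibres. Their survival depends on the receptor CSF1R and its ligands CSF1 and IL34. Many of their surface receptors carry no signalling tail and signal through the membrane adaptors TYROBP and FCER1G. Muscle was measured as a whole, so fewer macrophages and less of a transcript in each macrophage cannot be told apart in any value below.

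The array read each transcript with probes of 60 bases, and a few are shown because they set how far readings of 1 gene are separate. The 2 brightest LYZ probes share a run of 45 bases, of which the start is in capitals in the first 30 bases of each, so they read nearly the same stretch of the transcript.
LYZ A_72_P721793, bases 1 to 30: aattcgcaggcattgAATAATTGCTAATTA
LYZ A_72_P737919, bases 1 to 30: gcaggcattgaAATAATTGCTAATTAACCA
The brightest ACP5 and AIF1 probes are shown because they hold AATAAA, the letters of the usual polyadenylation signal, in capitals, searched as printed and not on the other strand. The motif was in 2 of the 39 probes and in 10.3% of all 60305, a share that gives the background for a match.
ACP5 A_72_P053186, bases 31 to 60: ttctgtcactgccaaatagttAATAAAaaa
AIF1 A_72_P394883, bases 31 to 60: gccaatctaatttaAATAAAtcatcttccg
CSF1R and CD68 had 1 probe each, and CD14 differed least between temperatures, so the whole probe behind each of their values is given.
CSF1R O6058: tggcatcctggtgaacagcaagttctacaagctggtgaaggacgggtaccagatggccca
CD68 O7069: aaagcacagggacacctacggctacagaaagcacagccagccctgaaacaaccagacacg
CD14 A_72_P050971: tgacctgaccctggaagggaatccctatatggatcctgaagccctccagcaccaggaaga
The last sequence is the 1 kept GPNMB probe that did not follow the others of its gene.
GPNMB A_72_P545262: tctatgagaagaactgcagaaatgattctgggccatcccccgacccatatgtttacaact
The genome position of the probes was not analysed here.

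All values are log2 median pixel intensities after quantile normalisation, and each gene is represented by the brightest of its kept probes unless stated. The 75th percentile of the unnormalised intensity ran from 425.5 to 785.4 over the 35 arrays, and 58.4% to 75.9% of probes were well above background. HS arrays were brighter, with a log2 75th percentile of 9.24 ± 0.24 (SD, n = 17) against 9.05 ± 0.17 (SD, n = 18) in TN. The mean of the 10 genes, each in SDs from its own mean, followed this brightness with r = 0.58 over 35 arrays and r = 0.47 after group means were subtracted, so differences with brightness as a covariate stand beside the results they touch. The tissue label held: the 9 muscle fibre markers, among them the actin ACTA1 and the creatine kinase CKM, were well above background on 35 of 35 arrays. Creole TN replicate 1 was the lowest of all arrays for 9 of the 10 genes, and Large White TN replicate 3 was among the lowest 3 arrays for 9. At the other end, Large White HS replicate 5 was the highest array for 5 genes, Creole HS replicate 6 for 3 and Creole HS replicate 1 for 2.

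**Figure D1:**
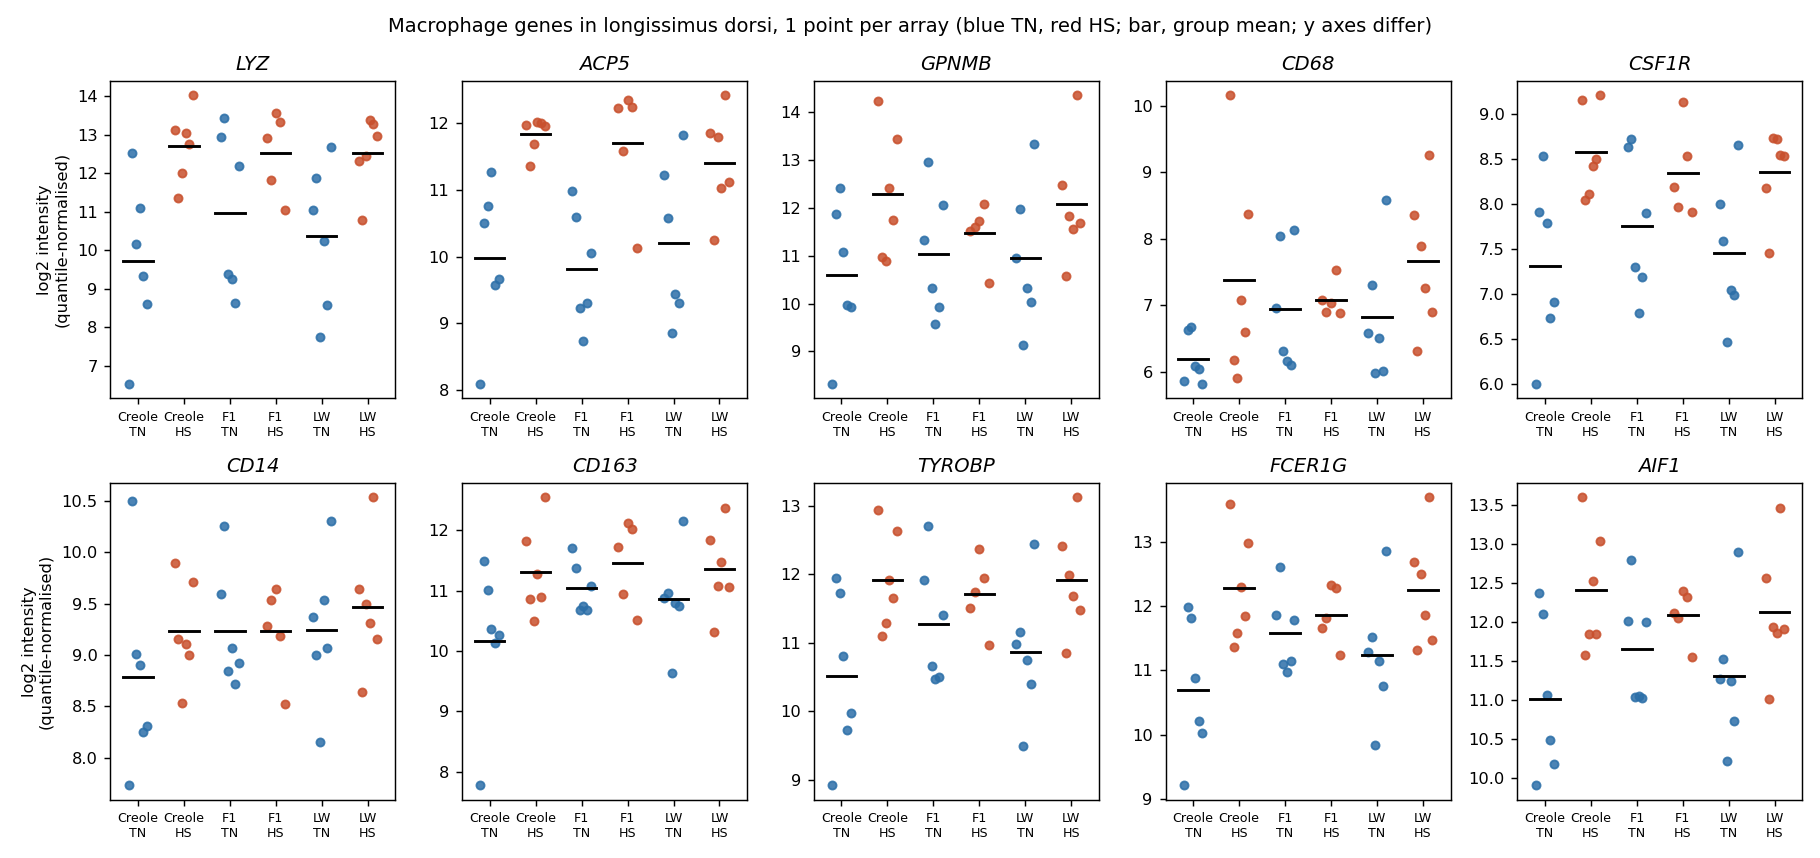
Quantile-normalised log2 intensity of the 10 genes (y axis, its range differing between panels) in the 6 groups (x axis, LW for Large White), with 1 point per array, blue for TN and red for HS, and a bar at the group mean. All 10 genes had a higher mean in HS than in TN over the 3 breeds, from 0.23 for CD14 to 2.26 for LYZ, and the points of the groups overlapped in nearly every panel.

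LYZ, the secreted enzyme lysozyme that cleaves bacterial cell walls, had the largest difference of the 10 between temperatures. In Creole pigs it ran from 6.53 to 12.53 with a median of 9.74 in TN, and from 11.34 to 14.02 with a median of 12.90 in HS. F1 pigs ran from 8.62 to 13.45 with a median of 10.78 in TN, and their 5 HS values were 11.04, 11.82, 12.91, 13.34 and 13.55. In Large White pigs LYZ ran from 7.75 to 12.69 with a median of 10.64 in TN, and from 10.77 to 13.39 with a median of 12.70 in HS. HS values sat at the upper end of a wide TN range in each breed and overlapped with it. Of the 17 HS arrays, 17 lay above the TN mean of their breed, while 2 of the 18 TN arrays lay above the HS median. The spread differed too, with an SD of 1.99 over TN arrays and 0.93 over HS arrays. Over all arrays LYZ was 2.26 (SE 0.51) higher in HS in the additive fit, a fold of 4.80. The order of the group means was Creole HS 12.72, F1 HS 12.53, Large White HS 12.53, F1 TN 10.97, Large White TN 10.36 and Creole TN 9.71, and neighbours within a temperature differed by less than their SDs. The 4 LYZ probes gave differences between 2.13 and 2.27 and correlated with the brightest at r = 0.99 or more. With brightness as a covariate the difference was 1.80, and it was 2.04 without Creole TN replicate 1.

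ACP5, the tartrate-resistant acid phosphatase of osteoclasts and tissue macrophages, came next. Creole TN values ran from 8.10 to 11.27 with a median of 10.08, and Creole HS values from 11.36 to 12.02 with a median of 11.97. This was the only gene of the 10 whose TN and HS values did not overlap within a breed, and it was so in Creole pigs alone, where 1.14% of all 9561 genes lay wholly higher in HS. F1 pigs ran from 8.73 to 10.98 with a median of 9.68 in TN, and their 5 HS values were 10.12, 11.58, 12.22, 12.24 and 12.35. In Large White pigs ACP5 ran from 8.85 to 11.82 with a median of 10.01 in TN, and from 10.26 to 12.41 with a median of 11.46 in HS. Of the 17 HS arrays, 9 lay above the highest TN array of any breed, and 0 of 18 TN arrays reached the HS median of 11.85. The additive fit put ACP5 1.64 (SE 0.29) higher in HS, a fold of 3.12, and 1.52 with brightness as a covariate. Its other probes read lower intensities and smaller differences, with 1.39 and 0.54 for probes well above background on 34 of 35 arrays and 0.30 for the dimmest, which passed on 9 of 18 TN and 15 of 17 HS arrays. The median difference over the 4 probes was 0.97. A mean over all kept probes, which also counts a copy of the brightest probe named by accession, differed by 1.12.

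GPNMB and CD68 are membrane glycoproteins of lysosomes and related compartments. GPNMB ran from 8.33 to 13.33 with a median of 10.65 in TN and from 10.42 to 14.35 with a median of 11.74 in HS. The highest HS values, 14.35 in Large White HS replicate 5 and 14.23 in Creole HS replicate 1, stood above all others, but 6 of 18 TN arrays exceeded the HS median. The difference was 1.103 (SE 0.42). Of its 11 kept probes 10 were higher in HS, by 0.59 to 1.30, and A_72_P545262, printed above, differed by -0.09 (SE 0.14). That probe correlated with the brightest GPNMB probe at r = 0.56, the lowest value among the GPNMB probes. CD68 ran from 5.83 to 8.59 with a median of 6.42 in TN and from 5.92 to 10.15 with a median of 7.08 in HS, so the 2 ranges began at nearly the same value. Its difference of 0.74 (SE 0.32) was 0.21 with brightness as a covariate and 0.55 without Creole HS replicate 1, the array at 10.15. For GPNMB the covariate left 0.49.

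Among the receptors, CSF1R, the tyrosine kinase that binds CSF1 and IL34, ran from 6.003 to 8.72 with a median of 7.44 in TN and from 7.45 to 9.20 with a median of 8.50 in HS. Of the 18 TN arrays, 9 lay below the lowest HS array and 4 above the HS median. The difference was 0.93 (SE 0.22), a fold of 1.90, and 0.78 with brightness as a covariate. CD163, the scavenger receptor for haemoglobin bound to haptoglobin, ran from 7.77 to 12.16 with a median of 10.77 in TN and from 10.31 to 12.55 with a median of 11.28 in HS. The low end of its TN range was 1 array, Creole TN replicate 1. The difference was 0.70 (SE 0.26), or 0.53 without that array and 0.33 with brightness as a covariate. The 6 CD163 probes, which include a pair of identical sequence, gave 0.28 to 0.74. CD14, which hands bacterial lipopolysaccharide to TLR4 and LY96, had the smallest difference of the 10. It ran from 7.73 to 10.50 with a median of 9.01 in TN and from 8.52 to 10.54 with a median of 9.28 in HS, so the medians lay closer together than the SDs of 0.75 and 0.51. Its 3 probes were 0.21 to 0.26 higher in HS (SE 0.21 for the brightest), and the sign turned with brightness as a covariate, to -0.015.

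The signalling adaptors TYROBP and FCER1G and the calcium-binding protein AIF1, which bundles actin in moving and engulfing macrophages, gave differences of nearly equal size. TYROBP ran from 8.92 to 12.71 with a median of 10.77 in TN and from 10.86 to 13.12 with a median of 11.75 in HS. FCER1G ran from 9.21 to 12.85 with a median of 11.15 in TN and from 11.24 to 13.69 with a median of 11.86 in HS. For both adaptors 10 of the 18 TN arrays lay below the lowest HS array and 4 above the HS median. AIF1 ran from 9.90 to 12.89 with a median of 11.16 in TN and from 11.01 to 13.60 with a median of 12.05 in HS. The differences were 0.98 (SE 0.28) for TYROBP, 0.99 (SE 0.28) for FCER1G and 0.89 (SE 0.26) for AIF1, and 0.62, 0.59 and 0.50 with brightness as a covariate. Their 8 probes together gave differences of 0.84 to 1.03. The FCER1G probes have identical sequences, as do TYROBP A_72_P021321 and O5540, so these are not all separate readings.

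The median difference over the 10 genes was 0.95, beside -0.02 over all 9561 genes with a symbol and a kept probe. With brightness as a covariate the median over the 10 was 0.55. Scaling to the spike-in controls moved the median of all genes to 0.09 and gave 1.08 over the 10. In the fit over all probes, 6654 of 41517 (16.0%) differed between HS and TN at an adjusted p below 0.05, and 20 of the 38 kept probes of the 10 genes were among them. At the level of 1 probe a gene the counts were 6 of 10, namely LYZ, ACP5, CSF1R, AIF1, TYROBP and FCER1G, beside 18.3% of all genes. Since this contrast was in view when the genes were chosen, nothing is read from these counts. The 35 arrays lay on 5 slides that each held both temperatures, and with slide as a block the differences ran from 0.27 for CD14 to 2.32 for LYZ. Within single slides LYZ was higher in HS on 5 of 5, by 0.38 to 4.07, and so were ACP5 by 0.64 to 2.74, CSF1R by 0.18 to 1.65, CD163 by 0.16 to 1.30 and FCER1G by 0.17 to 1.82. The other 5 genes were higher on 4 of 5 slides. The exceptions were small for TYROBP (-0.02), CD14 (-0.06), AIF1 (-0.15) and CD68 (-0.17), and larger for GPNMB (-0.83). These values for single slides are differences of plain means, without matching of breeds. On slide 5 they set 1 HS array, Creole HS replicate 6, against 2 TN arrays, both of Large White pigs.

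The difference between temperatures was then set out by breed, since the pigs were of 3 breeds. In Creole pigs the 10 genes were 0.45 to 3.01 higher in HS, with a median of 1.39. Large White pigs gave 0.23 to 2.16 with a median of 0.96, and F1 pigs -0.001 to 1.89 with a median of 0.43. LYZ was 3.01 (SE 0.88) higher in Creole, 2.16 (SE 0.88) in Large White and 1.56 (SE 0.93) in F1 pigs. FCER1G was 1.59 (SE 0.47) higher in Creole, 1.02 (SE 0.47) in Large White and 0.29 (SE 0.49) in F1 pigs. ACP5 had another order, with 1.86 (SE 0.50) in Creole, 1.89 (SE 0.52) in F1 and 1.21 (SE 0.50) in Large White pigs. These orders were not resolved by the test of the interaction. It called 0 of 41517 probes (0%). An unadjusted p below 0.05 in the limma F-test was reached by 1593, fewer than would be due at that threshold if no probe had an interaction. Of the 38 probes of the 10 genes 0 reached either level. The smallest unadjusted p among the 38 was 0.129, at GPNMB A_72_P545262, and the smallest adjusted p from limma was 0.963.

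**Figure D2:**
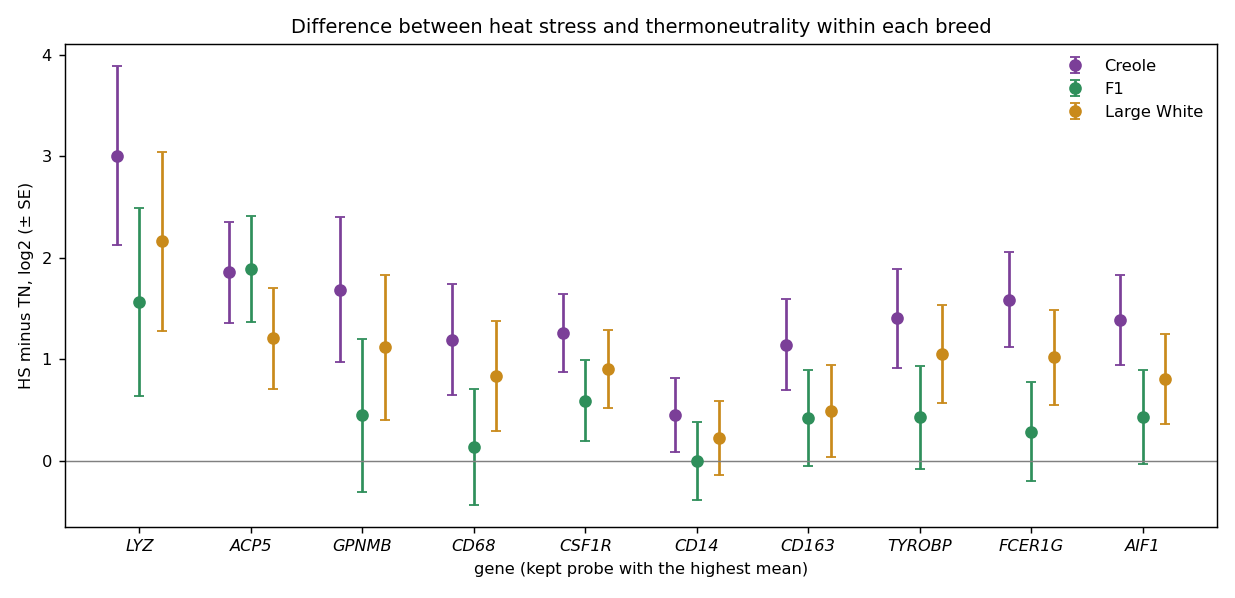
Difference between HS and TN in log2 intensity (y axis) for each of the 10 genes (x axis) in Creole, F1 and Large White pigs, with points at the fitted difference and bars of 1 SE. LYZ reached 3.01 in Creole pigs and CD14 was near 0 in F1 pigs at -0.001, while ACP5 reached 1.86 in Creole and 1.89 in F1 pigs.

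Between breeds, with temperature as a term, no probe of these genes was called. The difference between Creole and Large White pigs was negative, lower in Creole, in 33 of the 38 probes, and ran from -0.46 to 0.10. By gene, 8 of 10 were lower in Creole, with a median of -0.21 against -0.001 over all genes. The largest were CD68 at -0.46 (SE 0.38, limma adjusted p = 0.647), CD163 at -0.36 (SE 0.32, limma adjusted p = 0.664) and CD14 at -0.34 (SE 0.25, limma adjusted p = 0.584). LYZ differed by -0.23 (SE 0.62) and ACP5 by 0.10 (SE 0.35). The test called 3.64% of all probes in this contrast and 0 of the 38, of which 0 had an unadjusted p below 0.05, and the smallest adjusted p from limma was 0.493, at a CD14 probe. Leaving out Creole TN replicate 1 moved CD163 to -0.12 and LYZ to 0.10. For CD68 the value was -0.74 without Creole HS replicate 1 and -0.30 without Large White TN replicate 6. On the 4 slides that held both breeds at the same temperature, CD163 and TYROBP were lower in Creole on 4, with CD163 between -0.63 and -0.05, while ACP5 was lower on 1. F1 pigs lay between -0.20 (GPNMB) and 0.46 (LYZ, SE 0.55) of the midpoint of the parental breeds, higher for 8 of 10 genes. Without F1 TN replicate 2 these ends were -0.42 for GPNMB and 0.18 for LYZ, and without F1 HS replicate 5 GPNMB was at -0.05. The call rate there was 0.246% of all probes and 0 of the 38, with a smallest adjusted p of 0.794 from limma, at a CD163 probe, and again 0 of 38 at an unadjusted p below 0.05. In thermoneutral arrays alone F1 pigs were 0.94 above the midpoint for LYZ, and in heat stress arrays alone, an alternative chosen after the data were seen, at -0.09. Neither was called.

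Across arrays the 10 genes varied together, which the choice of genes also used. Pearson's r over the 35 arrays ran from 0.58 for ACP5 with CD14 to 0.98 for TYROBP with FCER1G over the 45 pairs, with a median of 0.85. The points shared their arrays, slides and brightness. After each group's mean was subtracted r ran from 0.55 to 0.98 with a median of 0.83. Spearman's rho after that step ran from 0.69 to 0.96. Within TN arrays alone the median was 0.85 and within HS arrays alone 0.74. Without the 2 arrays farthest from the median of the first gene of each pair it was 0.80. TYROBP, FCER1G, AIF1 and GPNMB were the tightest set, with r of 0.94 or more in each of their pairs. CD68 went least with LYZ (0.67) and ACP5 (0.59), yet followed GPNMB at 0.88.

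**Figure D3:**
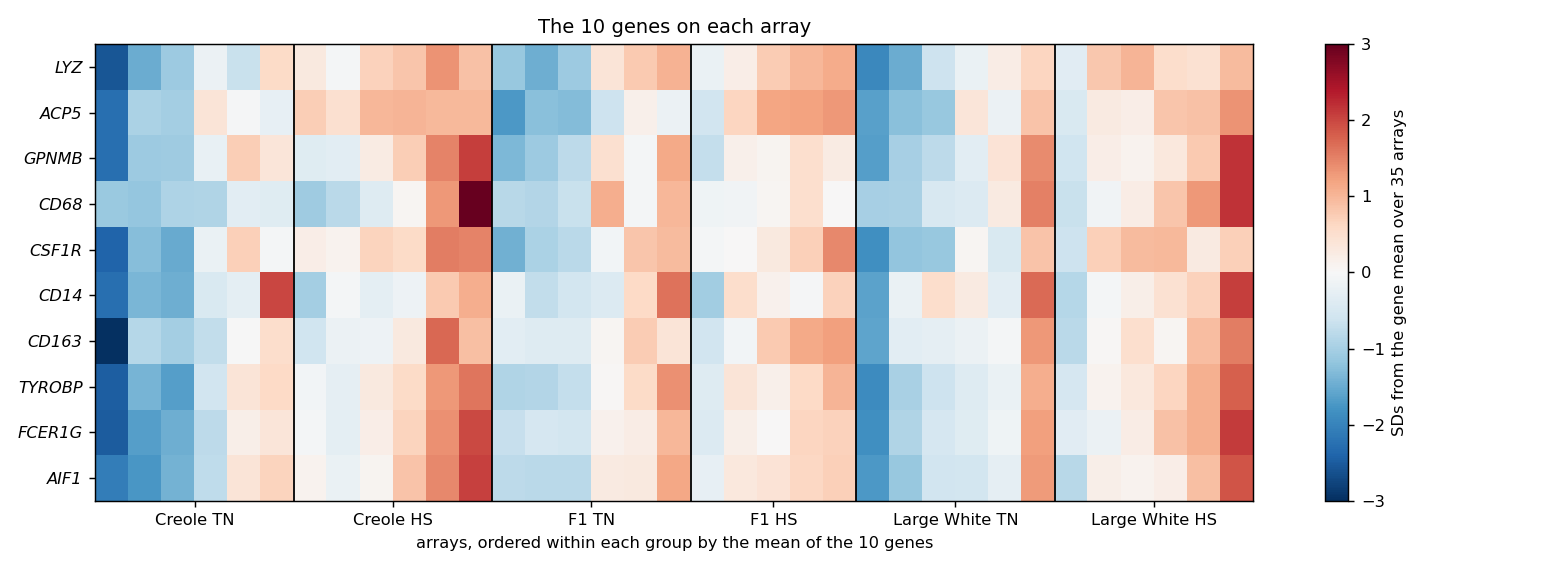
The 10 genes (rows) on the 35 arrays (columns, ordered within each group by the mean of the 10 genes), coloured by SDs from the mean of each gene over all arrays. Whole columns are blue or red, as in Creole TN replicate 1, where 0 of 10 genes lay above their mean, and in Large White HS replicate 5, where 10 of 10 did.

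Some pigs carried a low or high level of nearly all 10 genes. Creole TN replicate 1 averaged -2.36 SDs from the mean over the 10 genes and Large White TN replicate 3 averaged -1.67. Large White HS replicate 5 averaged 1.68, Creole HS replicate 1 averaged 1.61 and Creole HS replicate 6 averaged 1.33. High values were not confined to HS, since Large White TN replicate 6 averaged 1.19 with 10 of 10 genes above their mean. Low values were not confined to TN either, with Large White HS replicate 2 at -0.61 and 0 of 10 genes above their mean.

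**Figure D4:**
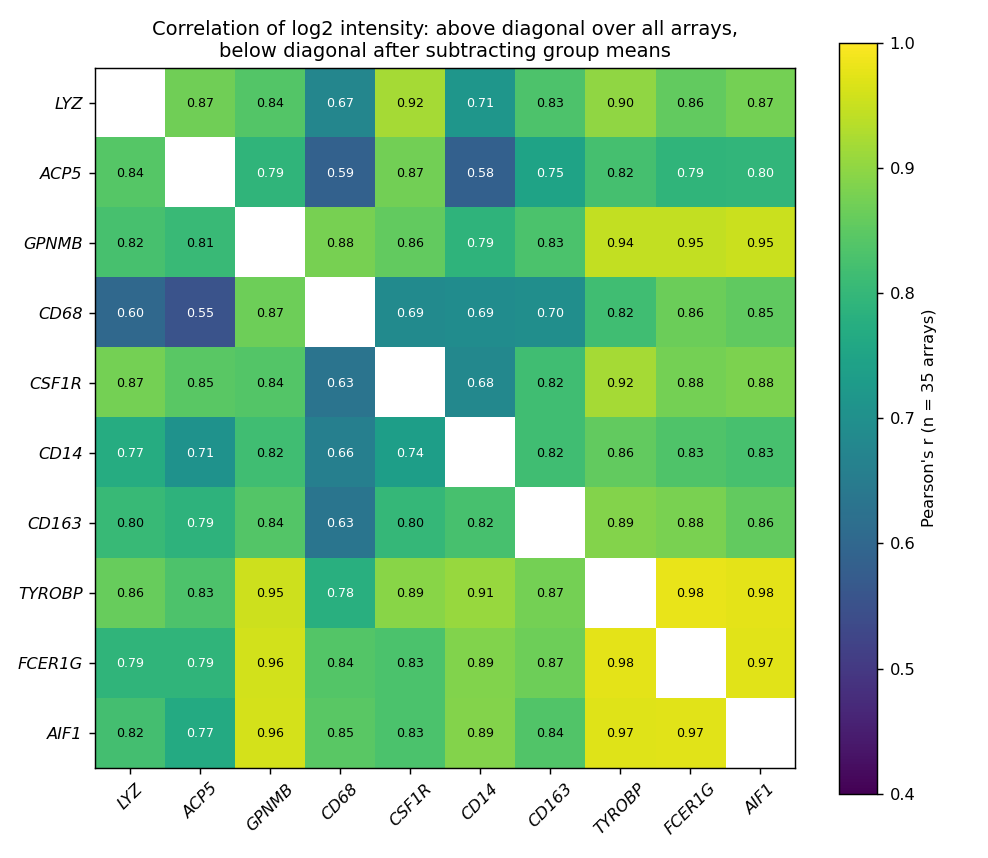
Pearson's r between the log2 intensities of each pair of the 10 genes over 35 arrays, above the diagonal as measured and below it after subtracting the 6 group means. The block of TYROBP, FCER1G, AIF1 and GPNMB has values of 0.94 or more on both sides, and CD68 has its lowest values with ACP5 (0.59 and 0.55).

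Each gene was also set against TYROBP, as a description. Relative to TYROBP on the same array, LYZ averaged 1.28 more in HS than in TN, with SDs of 1.13 over TN and 0.64 over HS arrays, and ACP5 0.68 more. GPNMB averaged 0.14 more, FCER1G 0.01 more and CSF1R differed by -0.05. CD14 differed by -0.74 relative to TYROBP, with SDs of 0.48 and 0.30. These are differences of log2 ratios within an array given without a test, and they do not say which gene of a pair moved.

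Other genes followed the same profile. After group means were subtracted, the 10 genes most like the mean of the members, of 9551 compared over 35 arrays, included GMFG, VAV1, NCKAP1L, PTPN6, SLC7A7, CTSS, CYBA, CD48 and RGS10, at r of 0.97 to 0.99. The median over all compared genes was -0.07, and 566 of them exceeded 0.8. VAV1, NCKAP1L, PTPN6 and CD48 are expressed in blood-derived cells in general and not in macrophages alone. The most like LYZ was the gene the array names GP91-PHOX, the catalytic subunit of the phagocyte NADPH oxidase, at 0.93, followed by RGS10 (0.92), LAPTM5 (0.91), SLC7A7 (0.89) and NPL (0.88). For ACP5 they were NPL (0.91), MFSD7 (0.90), NUP93 (0.88), GP91-PHOX (0.87) and ADAM28 (0.87).

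Macrophage markers outside the 10 were tested next, from a list of 36 genes of which 28 had a tested probe. In HS 15 of the 28 were higher and 0 lower at an adjusted p below 0.05, beside 8.48% of all genes higher and 9.82% lower, and the median of the list was 0.77. The list was chosen with earlier results of these data known, and its genes varied with the members across arrays (r = 0.98 with their mean for CTSS and CYBA), so the count is no independent evidence. The largest were the fractalkine receptor CX3CR1 (1.51, SE 0.24, limma adjusted p = 0.000166), the lipid receptor TREM2 (1.48, SE 0.34), the high-affinity Fc receptor FCGR1A (1.33, SE 0.33), the lysosomal protein LAPTM5 (1.26, SE 0.24), the receptor for the complement fragment C5a C5AR1 (1.25, SE 0.33) and the complement receptor VSIG4 (1.24, SE 0.23). CX3CR1, VSIG4 and LAPTM5 exceeded the TN mean of their breed on 17 of 17 HS arrays. CX3CR1 itself went from 8.56 ± 0.87 (SD, n = 18) in TN to 10.06 ± 0.62 (SD, n = 17) in HS. The others called included CTSS, FCGR3A, CYBA, NCF4, NCF1, C1QB, SPI1 and C1QA, from 0.46 to 1.19. The 2 lowest of the list were FOLR2 at -0.14 (SE 0.08) and LYVE1 at -0.11 (SE 0.07), neither called. With array brightness as a covariate 4 of the 15 were called, CX3CR1, VSIG4, LAPTM5 and FCGR3A, while the call rate over all probes was 5.04%. Leaving out 1 array at a time left 11 to 20 called, with the fewest without Creole TN replicate 1. Of the 15, C1QA was called in 14 of these 35 fits, SPI1 in 23 and CYBA in 28. Between Creole and Large White pigs 0 of 28 were called, beside 3.68% of all genes, and the nearest was the complement subunit C1QA at -0.65 (SE 0.19, limma adjusted p = 0.051), which passed in 9 of 16 other settings.

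The ligands, co-receptors and regulators of the 10 genes were the second list, with 21 of 27 tested and CSF1 and TREM1 without a tested probe. In HS 9 were higher and 1 lower, beside 8.48% and 9.82% of all genes, and this list too was chosen with earlier results known. FCGR3A, FCGR1A, SPI1 and TREM2 are among the 9 and were already counted in the first list. IL34, the second ligand of CSF1R, averaged 10.03 ± 0.23 (SD, n = 18) in TN pigs, against 10.48 ± 0.27 (SD, n = 17) in HS pigs, higher by 0.45 (SE 0.07, limma adjusted p = 0.000171), exceeded the TN mean of its breed on 17 of 17 HS arrays and was called with brightness as a covariate. With that covariate FCGR3A was the only other gene of the list called, so TREM2, FCGR1A, LY96, TLR4, CEBPA, SPI1, CTSK and CEBPB lost their calls. Of the tested receptors that signal through TYROBP or FCER1G, TREM2 and FCGR1A were higher as given above and FCGR3A by 0.96 (SE 0.18, limma adjusted p = 0.00064), while CLEC5A was not called at 0.71 (SE 0.37, limma adjusted p = 0.186). The kinase SYK, which both adaptors recruit, was 0.74 (SE 0.26) higher and not called, at an adjusted p of 0.0504 from limma. It was called in 7 of 14 other settings and in 9 of 35 fits that left out 1 array. Of the partners of CD14, LY96 at 0.83 (SE 0.21) and TLR4 at 0.79 (SE 0.21) were called. LBP, which carries lipopolysaccharide to CD14, was not, at -0.15 (SE 0.07, limma adjusted p = 0.131), but was called lower under both 75th percentile scalings, at -0.35 and -0.26. Whether these differences exceed that of CD14 was not tested. Of the transcription factors of the myeloid line CEBPA was 0.79 (SE 0.22) and SPI1 0.65 (SE 0.21) higher, and CEBPB was lower (-0.32, SE 0.09). MITF, TFEB and TFE3, factors that drive lysosomal genes such as GPNMB and ACP5 in other cells, were at 0.06, -0.12 and 0.11 and not called. TFEB was called lower under both 75th percentile scalings, at -0.25 and -0.22. Cathepsin K, CTSK, which like ACP5 is typical of osteoclasts, was 0.36 (SE 0.11) higher. The CD163 ligand HP (-0.35, SE 0.26), the haem oxygenase HMOX1 (-0.12, SE 0.29) and osteopontin SPP1 (0.17, SE 0.61) were not called, and SPP1 varied with an SD of 1.89 in both temperatures. Over all probes 48.2% of the called probes were higher in HS, and this split moved to 27.2%, 37.5%, 56.7% and 86.5% under 75th percentile scaling of the median intensity, 75th percentile scaling of the processed signal, median scaling and scaling to the spike-in controls.

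**Figure D5:**
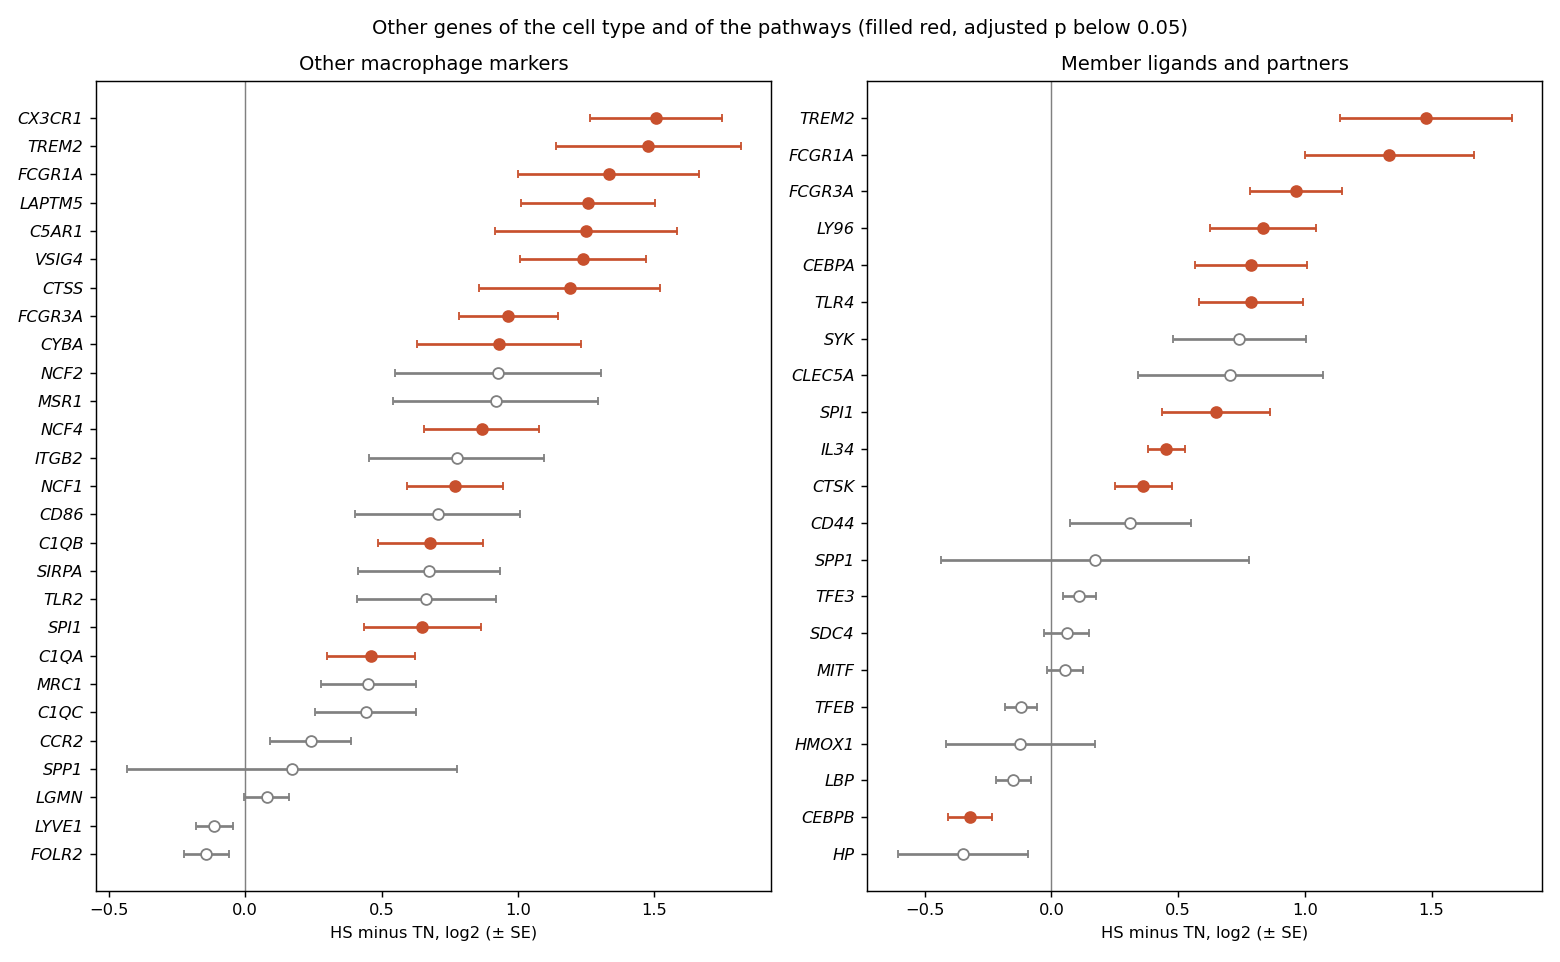
Difference between HS and TN in log2 intensity (x axis, bars of 1 SE) for the tested macrophage markers outside the 10 genes (left) and the tested ligands, partners and regulators (right), with filled red points for an adjusted p below 0.05. Of the 28 tested markers 1 is not drawn. The filled points of the left panel all lie right of 0, and of the 10 filled points of 21 in the right panel CEBPB alone lies left of 0.

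Marker lists of other cells in the muscle are given beside these values. Over all genes 8.48% were called higher in HS and 9.82% lower. Of the T and B cell markers 1 of 9 was called higher in HS, CD3G (0.48, SE 0.14), and the mean of the list ran from 6.67 to 7.53 over TN arrays and from 6.95 to 7.50 over HS arrays. Neutrophil markers gave 0 higher and 1 lower of 5, with the alarmins S100A8 at 0.04 (SE 0.36) and S100A9 at 0.10 (SE 0.20), the second well above background on 20 of 35 arrays, and list means of 6.07 to 7.87 in TN and 6.10 to 8.55 in HS. Dendritic cell markers gave 1 of 3, CCR7 at 0.46 (SE 0.16), with list means of 6.93 to 8.52 in TN and 7.57 to 8.66 in HS, and mast cell markers 0 of 3, from 7.17 to 7.47 in TN and 7.06 to 7.93 in HS. Fibroblast markers gave 3 of 7 higher, COL3A1 (0.33), LUM (0.39) and FAP (0.32), with list means of 11.17 to 12.70 in TN and 12.13 to 12.71 in HS, and adipocyte markers 0 of 7, from 9.60 to 10.85 in TN and 10.24 to 10.94 in HS. Red cell markers gave 2 of 4 lower, HBB (-1.21, SE 0.22) and AHSP (-0.44, SE 0.15), with list means of 8.01 to 9.06 in TN and 7.49 to 8.72 in HS. ALAS2 at -0.23 (SE 0.10) was not called, and SLC4A1 went the other way at 0.37 (SE 0.17), not called either. Endothelial markers gave 1 of 7 lower, VWF (-0.36, SE 0.08), from 10.21 to 11.28 in TN and 10.103 to 10.805 in HS. Of the 9 muscle fibre markers MYH2 was lower (-0.21, SE 0.06), with list means of 18.79 to 18.93 in TN and 18.63 to 18.90 in HS. For comparison the mean of the 10 macrophage genes ran from 7.84 to 11.57 in TN and from 9.75 to 12.10 in HS. The part of these other lists in the differences of the 10 genes was not tested.

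Probes of identical sequence give the measurement error within an array, which leaves out that of extraction and labelling. Among the probes of these genes, counting copies that the array names by accession in place of a symbol, 8 pairs had identical sequences. The SD of their difference over 35 arrays was 0.07 to 0.10, against an SD of 0.48 to 1.99 over pigs of a temperature for the 10 genes. Their mean levels differed by as much as 0.58 (LYZ) and 0.56 (ACP5), so levels are compared here only within a probe.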

How the data were processed

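Total RNA of longissimus dorsi from 35 pigs was labelled with Cy3 and hybridised, 1 array per pig, to a 1-colour Agilent porcine array. The authors deposited the scanner output of each array, with the median pixel intensity and the mean and background intensities of each spot and quality flags, from Agilent Feature Extraction 10.10.1.1 per the file headers. They also deposited a table of log2 values after quantile normalisation and a filter on expressed probes, used here as an alternative. The study's methods updated its annotation against Sscrofa11.1. The members were found by the gene names of the scanner output. Other genes were named by matching probe identifiers to a gene reference, or else by the name in the scanner output. Probe positions were not analysed here.

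From the scanner output, control spots (1319 per array) and spots flagged as outliers (105 over all arrays) were left out, the median pixel intensity was quantile normalised over the arrays and log2 was taken. A probe was kept where, in 1 group or more, 75% or more of the arrays read it well above background. Groups came from the breed and temperature in the labels. Replicate numbers only name arrays, and p-values measure the spread between pigs. Linear models came from limma 3.58.1 under R 4.3.3 (figures and summaries with Python 3.11.15, numpy 2.4.6, pandas 2.3.3 and matplotlib 3.10.9). The additive model held breed and temperature, as in the study's methods but without their random terms for pen, slaughter day and parents, and the interaction came from a model with 1 mean per group. p-values were adjusted by Benjamini-Hochberg over all kept probes, with a threshold of 0.05. The fits were run on simulated data with independent noise on each array. That simulation held no litter, pen, slaughter day or slide, so it does not bear on the treatment of pigs as independent. The members and lists were chosen with earlier results of these data known, so no p is given for the members between temperatures, and the list counts are no independent evidence either. Genes are named as every member, the called list genes (the 6 largest where over 12 were called), the ligands and adaptor partners of the members, and the genes most like the members, 10 for the mean and 5 each for LYZ and ACP5. Other cell markers and further list genes were named after their values were seen. Of the probes, 40.6% were given a gene symbol, by matching their identifiers or by their name in the scanner output. Probes without one were not searched for list genes. The number of arrays limits the precision. Scaling, background correction, filter, slide, array weights, brightness, model, probe choice, the deposited table and leaving out each array were tried as alternatives, and heat stress arrays alone were added after the data were seen. Promoter and protein sequences were not analysed here. For 1 gene of the lists, results are not reported here, though it counts in the totals.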

Additional observations from a re-analysis of the deposited data

Results flagged for a closer look

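The CD163 value of Creole TN replicate 1 stood far from the others of its group. Its log2 intensity was 7.77, against a median of 10.37 over the other Creole TN arrays, and its gap to the nearest of them was 0.634 of the range of the group. This was 1 of 60 combinations of a gene and a group examined, where chance flags about 5%. The same array was the lowest of all 35 for 9 of the 10 genes. Without it the CD163 difference between HS and TN was 0.53 in place of 0.70, and that between Creole and Large White pigs -0.12 in place of -0.36.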

How the results depend on the processing

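Each value was recomputed under up to 16 other settings and without each of the 35 arrays, and 1881 of 1903 recomputed values were counted as unchanged. For a temperature difference that meant the same sign and a move below the spread between pigs. For a count it meant an equal or close value. For a breed value it meant the same side of the threshold, whatever its sign while uncalled. These rules are loose: for CD68, GPNMB and CD14 the SD between pigs in either temperature exceeded the difference itself. The CD68 difference fell from 0.74 to 0.21 with brightness as a covariate and was still counted as unchanged. The share of unchanged values was therefore largely set by the rules and is not a measure of stability. Signs did turn: LYZ between Creole and Large White pigs was -0.23 in the fit reported and -0.66 to 0.19 in other settings. With array brightness as a covariate, 4 in place of 15 other macrophage markers and 2 in place of 10 ligands and partners were called between HS and TN, and the CD14 difference turned from 0.23 to -0.015. The cause was not tested. Leaving out 1 array gave 11 to 20 of the markers and 9 to 11 of the ligands and partners. Between Creole and Large White pigs 0 of the markers were called in the fit reported, 1 under both 75th percentile scalings, median scaling, the filter on every array, slide as a fixed or a random block and the brightness covariate, and 2 under spike-in scaling and array weights. Leaving out 1 array gave 0 to 2, with 2 without Creole TN replicate 3 or Large White HS replicate 5 and 1 without Creole HS replicate 1 or 2, Creole TN replicate 2, F1 TN replicate 1, 2 or 4, Large White TN replicate 3 or Large White HS replicate 6. The 10 genes gave 0 called probes in the breed contrasts and the interaction under every setting run, with a smallest adjusted p for the interaction from limma of 0.765 to 1.00. No paired analysis was possible because the replicate numbers were given in accession order and pair nothing. Signal over background limits the dimmest ACP5 probe, and the GPNMB probe that was left out. To a lesser degree it also limits GPNMB A_72_P557355, which gave the difference of 0.59 and was well above background on 29 of 35 arrays. The same holds for CD14 A_72_P756625, well above background on 32 of 35.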
